A study of Mus musculus with 10 samples.

Results

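Protocadherins are cell adhesion proteins of the cadherin superfamily, and the histone marks at their genes were described in explanted retinas of wild-type C57BL/6J mice. The members were all autosomal peaks whose assigned gene symbol starts with Pcdh, with Pcdh15 left out. There were 51 such peaks of 108253 in the table, assigned to 15 of 25400 gene symbols. The clustered family, whose genes lie side by side in arrays, held 7 peaks: 4 of Pcdha genes, 3 of Pcdhg genes and 0 of Pcdhb genes. The other 44 peaks belonged to 9 non-clustered genes, of which Pcdh1 had 16 peaks, Pcdh9 13, Pcdh17 4, Pcdh7 3, Pcdh10, Pcdh18 and Pcdh20 2 each, and Pcdh8 and Pcdh12 1 each. The 114 peaks of Pcdh15 and the 5 peaks of X-linked protocadherins were not members. All retinas came from postnatal day 28 (P28) and were kept for 48 hours in Neurobasal-A medium. CUT&Tag, in which an antibody directs a transposase to a histone mark so that fragments are released there, was run for lactylation of histone H3 at lysine 18 (H3K18La) and for acetylation at lysine 27 (H3K27Ac). H3K18La was profiled in 3 libraries with 5 mM glucose and 3 with 25 mM, and H3K27Ac in 2 libraries at each concentration. The comparisons asked how each mark changed with glucose. Whole explants were used, so fewer cells of a type and less signal per cell cannot be told apart.

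Clustered protocadherins work as a recognition code in neurons. Each variable exon of the Pcdha and Pcdhg arrays has its own promoter and is spliced to constant exons shared by its array, and a neuron uses a small, largely random choice of these promoters under the control of CTCF, cohesin and DNA methylation. The C-type variable exons at the end of each array are instead used by many neurons. Because isoforms bind only to matching isoforms on another membrane, branches of the same cell recognise and avoid each other, and in the retina Pcdhg genes are known for self-avoidance in starburst amacrine cells and for neuron survival. Non-clustered protocadherins are separate genes with their own promoters, and are known for cell sorting, axon outgrowth and synapse formation. Signal is given as RPKM, reads per kilobase of peak length per 1000000 reads of the library's denominator, so that peaks of different length can be compared.

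Pcdh9 and Pcdh17 illustrate the range of sequence under the peaks, since Pcdh17 was strongest in an intron and Pcdh9 at its promoter. The first pair of stretches below are RefSeq promoters (GRCm38.p6), 300 bases that span a transcript start, and the last is the middle 300 bases of the Pcdh17 intron peak (GRCm38). They lie at chr14:93890630-93890929 (minus strand), chr14:84443313-84443612 (plus strand) and chr14:84507103-84507402 (plus strand). CpG dinucleotides, the sites of DNA methylation, are in capitals.
Pcdh9 promoter: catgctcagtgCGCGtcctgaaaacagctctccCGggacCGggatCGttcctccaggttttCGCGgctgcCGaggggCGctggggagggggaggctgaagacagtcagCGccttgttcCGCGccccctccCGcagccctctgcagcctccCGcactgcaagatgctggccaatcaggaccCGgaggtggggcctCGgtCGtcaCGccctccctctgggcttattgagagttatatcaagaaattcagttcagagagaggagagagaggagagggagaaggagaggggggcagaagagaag
Pcdh17 promoter: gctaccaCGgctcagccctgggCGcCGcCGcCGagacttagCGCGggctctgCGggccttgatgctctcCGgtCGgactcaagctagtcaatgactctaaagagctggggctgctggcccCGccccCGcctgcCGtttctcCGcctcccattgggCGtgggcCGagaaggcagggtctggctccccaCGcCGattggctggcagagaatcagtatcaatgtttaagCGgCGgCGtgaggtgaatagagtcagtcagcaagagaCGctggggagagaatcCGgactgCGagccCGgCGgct
Pcdh17 intron peak: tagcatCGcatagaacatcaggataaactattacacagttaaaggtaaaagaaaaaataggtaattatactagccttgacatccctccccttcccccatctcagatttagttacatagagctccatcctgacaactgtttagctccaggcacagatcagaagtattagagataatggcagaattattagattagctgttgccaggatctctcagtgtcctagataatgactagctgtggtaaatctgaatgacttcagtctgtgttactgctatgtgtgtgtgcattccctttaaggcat
The Pcdh9 promoter held 18 CpG and 62.7% G or C, the Pcdh17 promoter 26 CpG and 65.0%, and the intron stretch 1 CpG and 39.7%. The median over all 32851 RefSeq promoters of the same length was 7 CpG and 52.7%. RefSeq promoters were matched for 7 of the non-clustered genes (8 entries, 4 to 26 CpG), and 7 of the 8 entries overlapped a peak. The motifs searched on both strands were TAATCC, the core bound by the photoreceptor factor CRX, and CAGGNGGC, part of the CTCF motif. Neither occurred in the stretches printed or in any of the 8 promoters, while 7.06% and 9.71% of all RefSeq promoters held them. In the middle 300 bases of the peaks, TAATCC occurred in 1 of 7 clustered and 7 of 44 non-clustered members (15.9%), against 11.5% of all peaks, and CAGGNGGC in 1 of 7 and 4 of 44 (9.09%), against 8.44%.

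The libraries were shallow at these genes. The denominators of the RPKM values ranged from 1358008 to 7424470 reads over the 10 libraries, the 51 members together held 52 to 1205 reads in a library, the median member held 1 to 12 reads, and 2 to 22 members held 0. Where 0 reads were counted, up to 3 cannot be told from 0, a limit that covers counting error only. At 5 mM, 11.8% to 12% of the H3K18La denominators lay in peaks, and at 25 mM 31.2% to 35.0%, while for H3K27Ac the shares were 21.1% and 31.5% at 5 mM and 69.5% and 56.5% at 25 mM. The share of reads in peaks therefore moved with glucose in both marks, and its part in the values below was not tested, except that each glucose comparison was recomputed per read in peaks. The tissue label was checked by the level of H3K27Ac at 25 mM at promoters of retinal marker genes. The 6 rod promoters stood at 18.9 to 62.6 RPKM (median 45.4), against a median of 8.63 over all genes with a promoter peak. Medians over matched promoters were 14.4 for amacrine, 6.98 for bipolar, 6.79 for Müller glia and 2.82 for cone markers. They were 1.56 for starburst amacrine, 1.03 for endothelial, 0.951 for horizontal and 0.725 for ganglion cell markers. Changes with glucose at these promoters are a description and do not check the label. All 6 rod promoters tested rose with glucose in both marks. Of bipolar cell promoters 3 were tested, and all 3 rose in H3K27Ac and 0 in H3K18La. The 1 starburst amacrine promoter tested, of Fezf1, rose in H3K18La. The 1 amacrine promoter tested rose in both marks, and 1 of 3 cone promoters rose in each mark. In H3K27Ac, 2 of 3 Müller glia promoters rose and 1 of 2 endothelial promoters fell. Of all 12657 genes with a tested promoter peak, 3336 were higher and 5 lower in H3K18La, and 7565 higher and 7 lower in H3K27Ac. Markers of horizontal cells (1 matched) and ganglion cells (2 matched) were all too weak to be tested, and no promoter peak matched the astrocyte or microglia markers. The part of cell composition in the results was not tested.

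Most promoters of the clustered arrays carried no peak. A start site was counted as marked where a peak of the table overlapped its window from -1000 to 500 bp (GENCODE M21, GRCm38). None of the 12 alternate Pcdha promoters was marked and none of the 22 Pcdhb promoters, and 1 of 18 of the protein-coding Pcdhga and Pcdhgb promoters was (Pcdhgb8, annotated as a polymorphic pseudogene, was not counted), that of Pcdhga11, through a weak peak assigned to Gm26672 with a mean of 0.716 RPKM over the 10 libraries. In all, 1 of 52 alternate promoters was marked (1.92%). The C-type promoters, which are not chosen at random, were marked at 4 of 5: Pcdhac1, Pcdhac2, Pcdhgc3 and Pcdhgc4, but not Pcdhgc5. Of the non-clustered genes 8 of 9 were marked, the exception being Pcdh12, and of all protein-coding genes 12928 of 21877 were (59.1%). The table has exactly as many peaks as the consensus set that the study merged over the ages of the developing retina, although no source names the set behind the table. If that is the set, a region without a peak could still carry signal in the explants. The sources used here also do not say whether reads with several matches in the genome were kept, while near-identical exons of the arrays could lose such reads. The absence of a peak is therefore a statement about the peak table, not about absence of the mark.

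**Figure D1:**
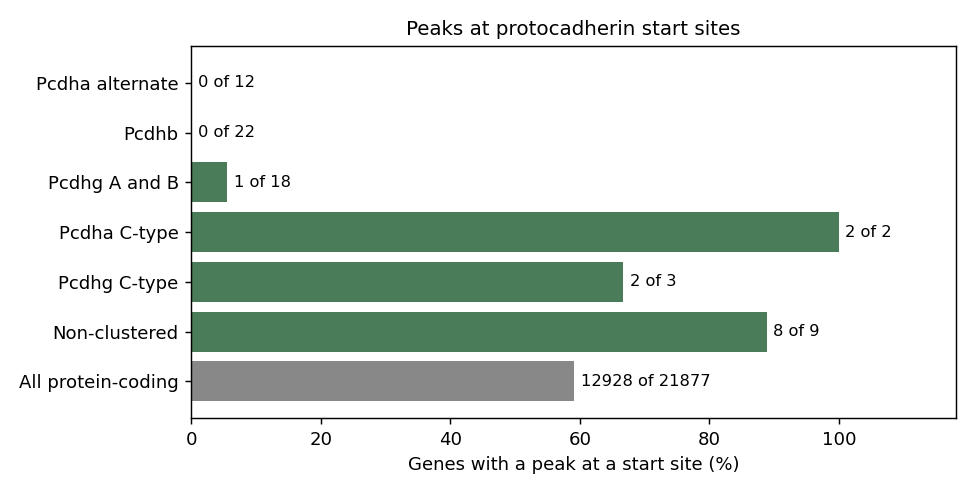
Percent of genes (horizontal axis) whose start site had a peak, for the alternate and C-type promoters of the Pcdha, Pcdhb and Pcdhg arrays, the non-clustered genes and all protein-coding genes. Alternate promoters sit at or near 0, while 4 of 5 C-type and 8 of 9 non-clustered genes were marked, against 59.1% of all genes.

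The density of peaks differed between the arrays. The span from the first Pcdha to the last Pcdhg exon, on chromosome 18 from 36930184 to 37841873 (GRCm38, 911690 bp), held 16 peaks, or 17.5 per Mb, against 39.7 per Mb over the genome. The Pcdha array held 6 peaks (23.3 per Mb), the Pcdhb array 1 (3.85 per Mb) and the Pcdhg array 7 (38.9 per Mb). Some non-clustered gene bodies were sparser than the Pcdha array, with 13.7 peaks per Mb at Pcdh9 and 7.22 at Pcdh7. Only 7 of the 16 peaks carried a protocadherin symbol, and the other 9 were assigned to genes without a protocadherin name, such as Gm42416 with 4. Where peaks lay in shared parts of an array, the assigned symbol stands for the array. Both Pcdha1 peaks overlapped 14 Pcdha gene models, in a shared intron and in the last shared exon, and the Pcdhga1 peak overlapped 22 Pcdhg models.

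Signal differed strongly between members. The strongest member was the Pcdha1 intron peak (chromosome 18, 37180011 to 37180832), 249827 bp downstream of the start of Pcdha1 and near the constant exons, with a mean of 14.4 RPKM over the 10 libraries, above 98.5% of all peaks. No other member of the clustered family exceeded a mean of 3 RPKM, and the next strongest of all members was the Pcdh17 intron peak (5.44 RPKM). Among the non-clustered genes the highest promoter means were 3.79 RPKM at Pcdh9, 1.62 at Pcdh1, 1.59 at Pcdh17, 1.30 at Pcdh8 and 1.17 at Pcdh20. The promoters of Pcdh7 (0.959 RPKM) and Pcdh10 (0.84) were weaker. A neighbouring peak assigned to Gm10544, which ends 843 bp before the Pcdha1 intron peak, was of like strength with a mean of 16.7 RPKM. Clustered promoter peaks had a median ratio of observed to expected CpG of 0.61, non-clustered promoter peaks 0.70 and all promoter peaks 0.60, and the median content of G or C was 51.1% over clustered, 51.2% over non-clustered and 49.6% over all peaks.

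**Figure D2:**
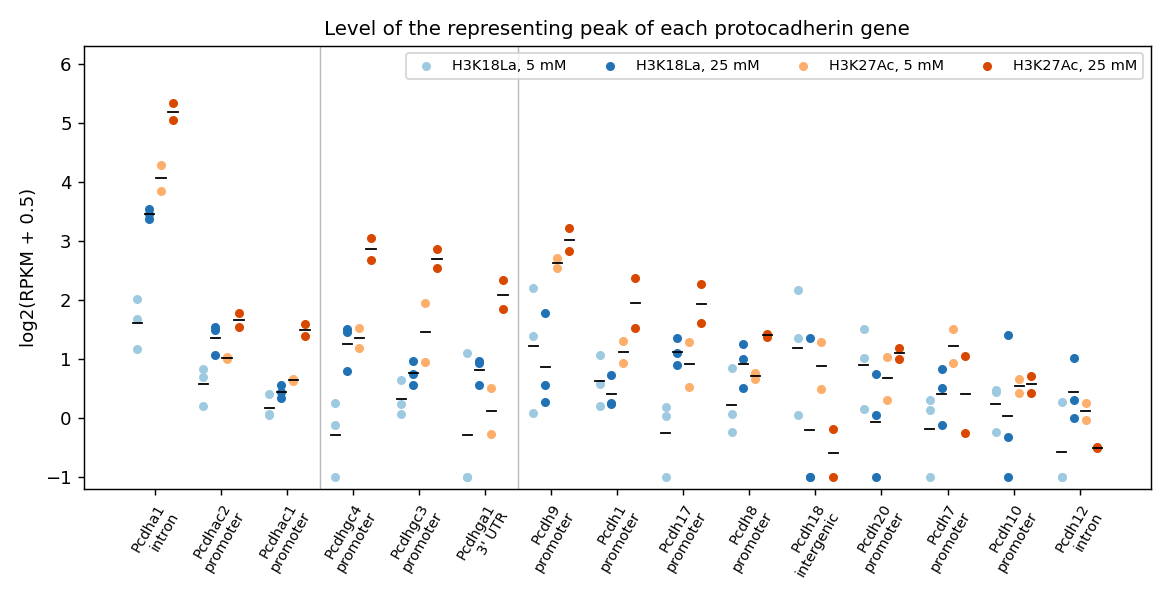
Signal of the peak that represents each of the 15 genes, as log2(RPKM + 0.5) in each of the 10 libraries (points), with a bar at each group's mean. Pcdha1 stands above the other genes in the 25 mM libraries of both marks, and Pcdh7, Pcdh10 and Pcdh12 lie near the lower end.

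Glucose was compared by limma with Benjamini-Hochberg adjustment over the 72467 peaks with a mean of at least 1 RPKM over the 10 libraries. Of the members, 30 passed this minimum, 6 clustered and 24 non-clustered, and none of Pcdh7, Pcdh10 or Pcdh12 did. The weakest member inside was a Pcdh20 exon peak with a mean of 1.08 RPKM, and the strongest outside was a Pcdh7 promoter peak at 0.959. At 25 mM, H3K18La was higher in 3 members by this test (limma adjusted p under 0.05), 1 of them clustered, against 33.3% of all tested peaks, and lower in 0, against 0.0980%. At an unadjusted p under 0.05 there were 7 higher and 0 lower, against 45.3% and 0.288% of all tested peaks, and voom on recovered reads called 7 higher and 0 lower, against 40.7% of all tested peaks higher. H3K27Ac was higher in 7 members, 3 of them clustered, against 33.5% of all tested peaks, and lower in 1, against 0.174%. The share of members called higher was below that of all peaks in both marks in this fit. With a replicate block, 4 of 30 members were higher in H3K27Ac, against 10.7% of all tested peaks. Leaving out H3K18La replicate 2 or 3 at 25 mM left 1 H3K18La call among members, against 19.8% or 22.5% of all tested peaks higher. Leaving out H3K27Ac replicate 1 or 2 at 25 mM left 0 or 1 H3K27Ac calls, against 0.0124% or 1.2% of all tested peaks higher. These counts are read as a description, since a member could pass the minimum through the group in which it was high.

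Changes were summarised by family, as a description. Members had a median log2 change (log2 fold change of 25 over 5 mM, on the log2(RPKM + 0.5) scale, which understates changes of weak peaks) of 0.74 for H3K18La, against 1.04 over all tested peaks, and of 0.76 for H3K27Ac, against 0.83. The 6 clustered members had medians of 0.95 and 1.19, and the 24 non-clustered members 0.66 and 0.63. All 6 clustered members had positive values in both marks, as had 18 and 21 of the 24 non-clustered, and 90.8% and 89.4% of all tested peaks. The mean log2 change of clustered members exceeded that of the others by 0.43 for H3K18La (1.00 against 0.57) and by 0.64 for H3K27Ac (1.22 against 0.58), with no test. Values varied within families, from 0.27 to 1.84 over the 6 clustered members for H3K18La, and the 11 tested peaks of the non-clustered Pcdh1 had a median of 1.22, above that of the clustered family. The families also differed in the kind of peak, with 4 of 6 clustered and 6 of 24 non-clustered tested peaks at promoters. Among promoters the medians were 0.61 clustered and 0.16 non-clustered for H3K18La, and 1.04 and 0.76 for H3K27Ac. Among other peaks, 2 clustered and 18 non-clustered, they were 1.48 and 0.90, and 1.55 and 0.59. At promoters alone, the 10 tested members had medians of 0.48 and 0.84, against 0.97 and 1.23 over all tested promoter peaks. Scaling each library to its reads in peaks moved the median of all tested peaks to 0.04 for H3K18La and -0.20 for H3K27Ac, and then 3 of 6 clustered members were above 0 in each mark and 11 and 4 of the 24 non-clustered. On that scale the clustered medians were 0.13 and 0.011 and the non-clustered -0.20 and -0.34.

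**Figure D3:**
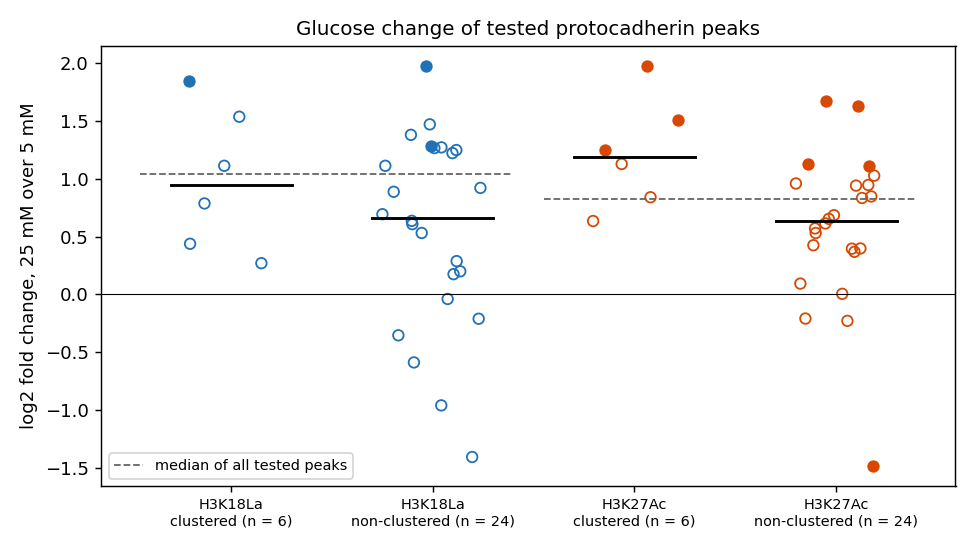
Log2 fold change (25 over 5 mM glucose) of each of the 6 clustered and 24 non-clustered tested peaks for each mark, with filled points where the adjusted p was under 0.05. The black bar is the median of a family and the dashed line that of all tested peaks (1.04 and 0.83), and in both marks the clustered median lies above the non-clustered one.

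In the Pcdha array the intron peak rose with glucose in H3K18La. It had 1.73, 3.52 and 2.69 RPKM in the H3K18La libraries at 5 mM and 11.1, 10.5 and 9.84 at 25 mM, groups that did not overlap. The log2 fold change was 1.84 (SE 0.30, limma adjusted p = 0.00138), above that of 86.2% of all tested peaks. Per read in peaks the change was 0.55 (adjusted p = 0.540), so that it was then not called. For H3K27Ac the peak had 13.8 and 19 RPKM at 5 mM and 32.5 and 39.8 at 25 mM, also without overlap. That change of 1.13 did not pass the test (SE 0.55, limma adjusted p = 0.0961). It stood at percentile 67.3 of all tested peaks. Over 14 alternative settings this H3K27Ac change ranged from -0.12 to 1.35 and passed in 2. The neighbouring Gm10544 peak, assigned to a gene that is no protocadherin, passed in both marks, with log2 changes of 1.91 (SE 0.31, limma adjusted p = 0.00131) and 1.57 (SE 0.57, limma adjusted p = 0.0234). Per read in peaks neither was called, and 0 of all 72467 tested peaks were called in either mark. Of the 7 tested peaks in the span with other symbols, 1 was higher in H3K18La and 6 in H3K27Ac, with medians of 0.98 and 1.51, against 33.3% and 33.5% of all tested peaks higher and medians of 1.04 and 0.83.

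The promoters of the Pcdha C-type exons, which encode the more broadly used isoforms, were weaker. Pcdhac2 (37143382 to 37145629) had 1.27, 1.12 and 0.655 RPKM of H3K18La at 5 mM and 1.58, 2.30 and 2.40 at 25 mM. For H3K27Ac it had 1.54 and 1.5 at 5 mM and 2.91 and 2.40 at 25 mM. Every library at 25 mM was above those at 5 mM, yet neither change passed, with log2 changes of 0.79 (SE 0.45, limma adjusted p = 0.192) and 0.63 (SE 0.45, limma adjusted p = 0.253). Pcdhac1 (37089492 to 37091270) had 0.533 to 0.828 RPKM of H3K18La at 5 mM and 0.758 to 0.968 at 25 mM, which overlapped. Its H3K27Ac values, 1.04 and 1.09 against 2.11 and 2.5, did not overlap. The log2 changes of 0.27 and 0.84 did not pass (limma adjusted p = 0.693 and 0.140). The last Pcdha exon peak, in the 3' UTR, held 0 to 10 reads in a library and was not tested.

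All 3 peaks with a Pcdhg symbol, of 7 in the array, rose in H3K27Ac, against 33.5% of all tested peaks. Pcdhgc4 (37814353 to 37815720), the promoter of the isoform known to be needed for neuron survival, had 2.37 and 1.77 RPKM of H3K27Ac at 5 mM and 7.72 and 5.91 at 25 mM, a log2 change of 1.51 (SE 0.44, limma adjusted p = 0.00599). Pcdhgc3 (37806199 to 37808301), another C-type promoter, had 1.43 and 3.37 at 5 mM and 6.74 and 5.32 at 25 mM, a change of 1.25 (SE 0.44, limma adjusted p = 0.0202). The Pcdhga1 peak (37841291 to 37841991), at the 3' end that all Pcdhg transcripts share, had 0.330 and 0.919 at 5 mM and 4.56 and 3.07 at 25 mM, a change of 1.97 (SE 0.46, limma adjusted p = 0.000891). These Pcdhga1 values stood for 1, 4, 23 and 16 reads. The peak had a mean of 1.44 RPKM over the 10 libraries, and without the H3K27Ac libraries at 25 mM it would have been below the minimum. In each of the 3 peaks both libraries at 25 mM lay above both at 5 mM, as in 68.6% of all tested peaks. Among all tested peaks the changes stood at percentiles 85.9, 73.7 and 97.3. Per read in peaks they were 0.36, 0.13 and 0.95, and none passed. In all, they passed in 9 of 14, 6 of 14 and 8 of 13 alternative settings. For H3K18La, Pcdhgc4 had 0.693, 0.423 and 0 RPKM at 5 mM and 2.23, 2.34 and 1.23 at 25 mM. These groups did not overlap, although the 0 allows up to 1.61 RPKM, and the log2 change of 1.54 missed the threshold (SE 0.55, limma adjusted p = 0.0522). Pcdhgc3 had 0.676, 0.550 and 1.05 at 5 mM and 1.45, 1.17 and 0.962 at 25 mM (0.44, SE 0.50, limma adjusted p = 0.505). Pcdhga1 had 0, 1.65 and 0 at 5 mM and 1.45, 1.40 and 0.962 at 25 mM (1.11, SE 0.66, limma adjusted p = 0.208). Both sets of values overlapped between the glucose levels.

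**Figure D4:**
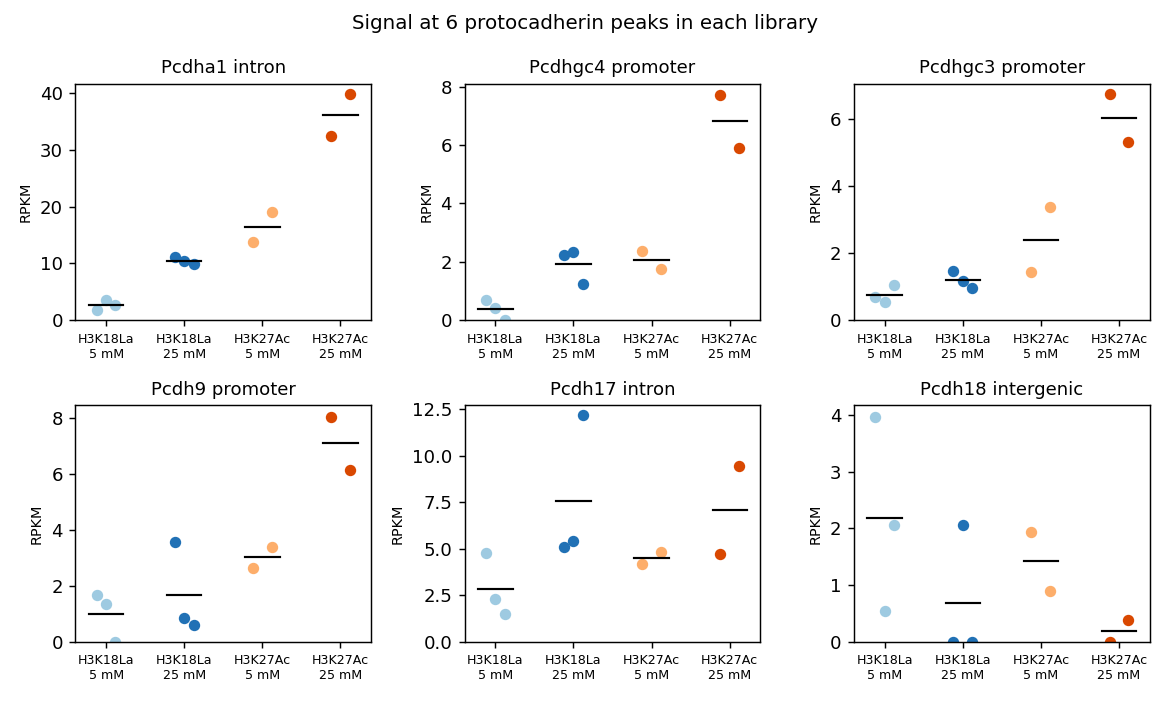
RPKM in each library (points) at the Pcdha1 intron, Pcdhgc4 promoter, Pcdhgc3 promoter, second Pcdh9 promoter (the stronger in change), Pcdh17 intron and Pcdh18 intergenic peaks, by mark and glucose. At the Pcdha1 intron and Pcdhgc4 the libraries at 25 mM lie above those at 5 mM in both marks, whereas the Pcdh18 values fall towards 0 in H3K27Ac.

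Among non-clustered genes, Pcdh17, a protocadherin of axon growth and synapses, rose in H3K18La. Its intron peak (chromosome 14, 84507004 to 84507502, 63441 bp from the start), which was named after its values were seen, had 4.75, 2.32 and 1.48 RPKM of H3K18La at 5 mM and 5.10, 5.42 and 12.2 at 25 mM, a log2 change of 1.28 (SE 0.44, limma adjusted p = 0.0420). The lowest value at 25 mM was barely above the highest at 5 mM, and the change passed in 5 of 16 alternative settings (adjusted p between 0.016 and 0.999), falling to 0.0029 per read in peaks. Its H3K27Ac values of 4.17 and 4.84 at 5 mM and 4.74 and 9.45 at 25 mM overlapped, with a change of 0.53 (SE 0.45, limma adjusted p = 0.349). The Pcdh17 promoter (84443034 to 84443778), whose sequence is printed above, had 0.636, 0.518 and 0 RPKM of H3K18La at 5 mM and 2.05, 1.65 and 1.36 at 25 mM. These groups did not overlap, although the 0 allows up to 2.97 RPKM, and the change of 1.38 did not pass (SE 0.55, limma adjusted p = 0.0725). Its H3K27Ac change was 1.03 (SE 0.44, limma adjusted p = 0.0567).

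Pcdh9, a protocadherin of neurons, had H3K27Ac at its promoter at both glucose levels. The promoter peak of highest mean (93889872 to 93890220) had 5.30 and 6.00 RPKM of H3K27Ac at 5 mM and 8.76 and 6.56 at 25 mM. These did not overlap, but the change of 0.40 did not pass (SE 0.46, limma adjusted p = 0.50). Its H3K18La values were mixed, 4.08, 0.553 and 2.11 at 5 mM and 2.92, 0.705 and 0.966 at 25 mM, a change of -0.35 (SE 0.62, limma adjusted p = 0.668). The second promoter peak (93890579 to 93891719), which covers the printed sequence and was named after its values were seen, had 2.63 and 3.39 RPKM of H3K27Ac at 5 mM and 8.04 and 6.14 at 25 mM. This rise of 1.11 passed (SE 0.44, limma adjusted p = 0.0403), but its direction turned per read in peaks (-0.039) and it passed in 6 of 14 alternative settings. The Pcdh9 intron peak at 93157416 to 93157939 had 0 and 0.615 RPKM at 5 mM and 3.18 and 1.03 at 25 mM, a rise of 1.67 (SE 0.55, limma adjusted p = 0.0146). These values stood for 0, 2, 12 and 4 reads, the 0 allows up to 1.324 RPKM, above the lower value at 25 mM, and the rise passed in 5 of 13 alternative settings (0.86 to 2.85). This intron peak had a mean of 1.15 RPKM over the 10 libraries, and without the H3K27Ac libraries at 25 mM it would have been below the minimum. Over the 7 tested Pcdh9 peaks the H3K18La changes ranged from -0.59 to 0.92, and 0 passed, against 33.3% of all tested peaks higher and 0.0980% lower.

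Pcdh1, known from epithelial and endothelial junctions, had the most peaks, 11 of its 16 distal intergenic. Of these 16 peaks, 11 were tested, with a median change of 1.22 for H3K18La and 0.65 for H3K27Ac. The promoter (chromosome 18, 38210321 to 38211805) had 1.6, 0.650 and 0.992 RPKM of H3K18La at 5 mM and 0.685, 1.16 and 0.681 at 25 mM, and 1.40 and 1.95 of H3K27Ac at 5 mM and 4.68 and 2.36 at 25 mM. Neither change passed (-0.21, limma adjusted p = 0.765, and 0.83, limma adjusted p = 0.120). Away from the promoter 3 peaks passed, 1 of the 11 tested in H3K18La and 2 in H3K27Ac, against 33.3% and 33.5% of all tested peaks. The 3' UTR peak at 38187189 to 38187910 had 0.657, 1.336 and 0 RPKM of H3K18La at 5 mM and 2.82, 4.09 and 3.74 at 25 mM. The groups did not overlap, with a change of 1.97 (SE 0.54, limma adjusted p = 0.0168). These values stood for 1, 5, 0, 4, 12 and 8 reads, the 0 allows up to 3.06 RPKM, above the lowest value at 25 mM, and the change passed in 10 of 16 alternative settings. An intron peak (38190482 to 38190932) had 1.54 and 2.14 RPKM of H3K27Ac at 5 mM and 10.5 and 4.18 at 25 mM (1.63, SE 0.44, limma adjusted p = 0.00331). Another 3' UTR peak (38184370 to 38185980) had 1.72 and 2.5 at 5 mM and 5.87 and 4.51 at 25 mM (1.13, SE 0.44, limma adjusted p = 0.0337). In both, the libraries at 25 mM lay above those at 5 mM, and the changes passed in 10 of 14 and 6 of 14 alternative settings, falling to 0.49 (adjusted p = 0.489) and 0.026 (adjusted p = 0.974) per read in peaks. The intergenic peak with the next largest H3K18La change, at 38156171 to 38156600, had a change of 1.47 that rested on single libraries (0, 0.449 and 0 RPKM at 5 mM, and 1.18, 0 and 5.49 at 25 mM) and did not pass (SE 0.83, limma adjusted p = 0.185). The lowest H3K27Ac change, -0.23 at 38119073, did not pass either (limma adjusted p = 0.759).

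The only member called lower at 25 mM was an intergenic peak 38190 bp from the start of Pcdh18, a protocadherin of the delta group. The peak (chromosome 3, 49716917 to 49717274) had 1.94 and 0.900 RPKM of H3K27Ac at 5 mM and 0 and 0.376 at 25 mM, a log2 change of -1.48 (SE 0.61, limma adjusted p = 0.0465). These values stood for 3, 2, 0 and 1 reads, the 0 allows up to 1.16 RPKM, above the lower value at 5 mM, and the call was lost under voom and held in 2 of 13 alternative settings. The H3K18La values of 3.97, 0.539 and 2.06 at 5 mM and 0, 2.06 and 0 at 25 mM overlapped (-1.40, SE 0.77, limma adjusted p = 0.172). Pcdh20 had a promoter peak (chromosome 14, 88470736 to 88471363) with 1.51, 0.614 and 2.35 RPKM of H3K18La at 5 mM and 0, 1.17 and 0.537 at 25 mM. These overlapped, and the change of -0.96 did not pass (SE 0.63, limma adjusted p = 0.248). Its H3K27Ac change was 0.43 (limma adjusted p = 0.494), and that of its exon peak was -0.21 (limma adjusted p = 0.774).

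The remaining promoters were near the limit of what could be measured. Pcdh8, an activity-regulated protocadherin of synapses, had a promoter peak (chromosome 14, 79770430 to 79771779) with 0.351, 1.29 and 0.545 RPKM of H3K18La at 5 mM and 1.88, 0.911 and 1.5 at 25 mM, which overlapped. Its H3K27Ac values, 1.2 and 1.07 against 2.16 and 2.10, did not overlap. The changes of 0.69 and 0.68 did not pass (limma adjusted p = 0.323 and 0.235). Pcdh7 and Pcdh10 are neuronal protocadherins whose promoters were too weak to be tested. Pcdh7 (chromosome 5, 57717886 to 57718682) had 0.595, 0.726 and 0 RPKM of H3K18La at 5 mM, 1.28, 0.926 and 0.423 at 25 mM, and 2.32 and 1.41 of H3K27Ac at 5 mM against 1.57 and 0.338 at 25 mM. Pcdh10 (chromosome 3, 45377116 to 45378771) had 0.859, 0.350 and 0.889 of H3K18La at 5 mM, 2.15, 0.297 and 0 at 25 mM, and 0.838 and 1.07 of H3K27Ac at 5 mM against 0.840 and 1.14 at 25 mM. These values overlapped in both marks. At the second Pcdh7 promoter peak (57719565 to 57720578) and at the Pcdh7 intron peak (58043796 to 58044524) H3K27Ac did not overlap, with 0.228 and 0.635 RPKM at 5 mM and 1.23 and 1.06 at 25 mM, and with 0.317 and 0.221 at 5 mM and 0.381 and 0.554 at 25 mM. They stood for 1 to 9 reads and were not tested. Pcdh12, an endothelial protocadherin, had a single intron peak of 0 to 1.52 RPKM (chromosome 18, 38272458 to 38273128), lower in both H3K27Ac libraries at 25 mM (0.207 and 0.201) than at 5 mM (0.689 and 0.480), which stood for 1 and 1 against 2 and 2 reads, and not tested.

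All 51 members, whether tested or not, were also counted by overlap. All H3K18La libraries at 25 mM were above all at 5 mM in 10 members (19.6%), against 36.6% of all peaks, and all were below in 1 (1.96%), against 0.821%. For H3K27Ac the counts were 25 above (49.0%), against 53.0%, and 5 below (9.80%), against 6.37%, shares near those of all peaks. The members above in H3K18La included the Pcdha1 intron, Pcdhac2 and Pcdhgc4, 4 Pcdh1 peaks and 2 Pcdh17 peaks. For H3K27Ac they included 6 of the 7 clustered members, 8 Pcdh1 peaks and 6 Pcdh9 peaks.

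Relative to all reads in peaks, the share of the clustered family overlapped between glucose levels, while that of the non-clustered genes was lower at 25 mM. The 7 clustered peaks took 63.2, 79.4 and 62.3 reads per 1000000 reads of H3K18La in peaks at 5 mM (68.3 ± 9.65, SD, n = 3) and 61.1, 70.0 and 63.8 at 25 mM (65.0 ± 4.58, SD, n = 3). For H3K27Ac they took 114 and 101.6 (108 ± 8.63, SD, n = 2) and 95.5 and 114 (105 ± 13.5, SD, n = 2). The groups overlapped in both marks. The 44 non-clustered peaks took 284, 235 and 262 reads on this scale at 5 mM (260.4 ± 24.6, SD, n = 3) and 185, 154 and 173 (171 ± 15.5, SD, n = 3) at 25 mM for H3K18La. For H3K27Ac they took 229 and 175 (202 ± 38.3, SD, n = 2) and 146 and 130 (138 ± 11.1, SD, n = 2). In both marks every library at 25 mM was below every library at 5 mM. By log2 change scaled to reads in peaks, 25551 of all 72467 tested peaks were above 0 in H3K27Ac (median -0.20). In H3K18La 37753 were above 0 (median 0.04). A lower share at 25 mM was thus common among all peaks in H3K27Ac. The Pcdha1 intron peak made up 18.8% to 50.6% of the clustered reads of a library, and the clustered reads numbered 10 to 480 in a library. In mean RPKM the clustered peaks went from 0.867 to 2.60 in H3K18La and from 3.64 to 8.47 in H3K27Ac, and the non-clustered from 0.842 to 1.38 and from 1.30 to 2.09.

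**Figure D5:**
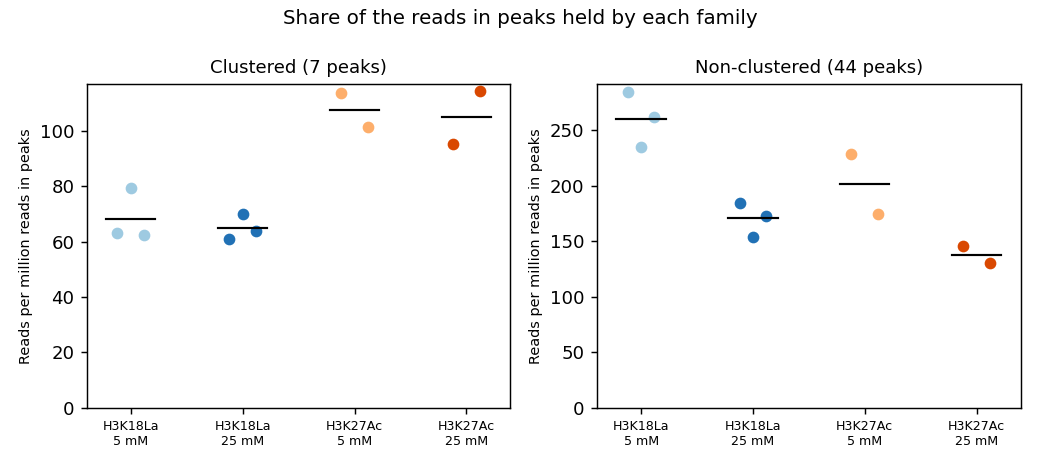
Reads in the 7 clustered and the 44 non-clustered peaks, as reads per 1000000 reads in all peaks, for each library (points), by mark and glucose. The clustered shares overlap between glucose levels, whereas the non-clustered shares are lower at 25 mM in both marks. On this scale the median log2 change of all tested peaks was 0.04 for H3K18La and -0.20 for H3K27Ac.

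The marks were also compared with each other. Since the antibodies differ, only the place of members among all peaks was read. At 25 mM, H3K27Ac exceeded H3K18La in 7 members (limma adjusted p under 0.05), against 24.6% of all tested peaks, and was below it in 0, against 2.07%. The 7 calls fell to 0 with scaling to reads in peaks, 2 with a pseudocount of 0.1, 2 with median centring, and 1 or 2 without H3K27Ac replicate 1 or 2 at 25 mM, where 5.37%, 14.4%, 15.8% and 7.42% or 14.3% of all tested peaks were higher. At 5 mM it exceeded H3K18La in 3 members, against 28.1%, and was below it in 0, against 0.399%, and these calls fell to 1 with scaling to reads in peaks, with median centring, or without H3K27Ac replicate 2 at 5 mM, where 3.95%, 9.34% and 3.63% of all tested peaks were higher. The Pcdha1 intron and Pcdhgc4 were called at both glucose levels. The Pcdha1 intron differed by 1.73 (SE 0.33, limma adjusted p = 0.00175) at 25 mM and by 2.45 (SE 0.33, limma adjusted p = 0.000941) at 5 mM. These stood at percentiles 81.6 and 95.3 of all tested peaks. Pcdhgc4 differed by 1.61 (SE 0.49, limma adjusted p = 0.0232) and 1.64 (SE 0.49, limma adjusted p = 0.0207), at percentiles 79.3 and 78.3. The other calls at 25 mM were Pcdhgc3 (1.95, percentile 85.3), the Pcdh1 promoter (1.54, percentile 77.7), both Pcdh9 promoter peaks (2.15 and 2.05, percentiles 88.3 and 86.8) and a Pcdh9 intron peak (2.07, percentile 87.1). At 5 mM the other call was the Pcdh1 3' UTR peak at 38187189 (1.48, percentile 73.5). Of the promoters called at 25 mM, Pcdhgc4 and Pcdh1 lay below the median of all tested promoter peaks (1.82), and Pcdhgc3 and both of Pcdh9 above it. The median difference over the 6 clustered members was 1.44 at 25 mM and 0.80 at 5 mM, against 0.54 and 0.81 over all tested peaks, and over the 24 non-clustered members 0.68 and 0.55. At promoters, which made up 4 of the 6 clustered members, the 10 tested members had medians of 1.35 and 0.82, below the 1.82 and 1.56 of all tested promoter peaks. Whether the glucose change itself differed between marks was tested by the interaction of glucose and mark. By limma 0 members were called of 0 in all tested peaks (0%), and at an unadjusted p under 0.05 there were 0 higher and 1 lower in H3K27Ac among members, a Pcdh1 3' UTR peak, against 1048 and 2602 of all tested peaks. Voom on recovered reads also called 0. The glucose changes of the marks were thus not shown to differ at any member.

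Promoters of related genes were set beside the members, from lists chosen with earlier results of these data known. Of 12657 genes with a tested promoter peak, 3336 were higher and 5 lower in H3K18La at 25 mM (median log2 fold change 0.96), and 7565 higher and 7 lower in H3K27Ac (median 1.26). Factors that shape or silence the clustered locus were 14, of which 13 were tested. H3K18La rose at 3 of them: Smc3, a cohesin subunit (1.83, limma adjusted p = 0.043), Smchd1, a chromatin silencer (1.47, limma adjusted p = 0.010), and the DNA methyltransferase Dnmt3a (1.51, limma adjusted p = 0.004). H3K27Ac rose at 11, among them Ctcf (1.67, limma adjusted p = 0.005), with a median of 1.47. Classical cadherins, which hold cells together, had 8 tested promoters, with 1 higher in H3K18La (Cdh4) and 3 in H3K27Ac (Cdh2, Cdh11 and Cdh20). Their medians were 0.62 and 0.74. Large cadherins, such as Fat genes of planar polarity, had 4 tested promoters, with 0 higher in H3K18La and 1, Fat4 (1.35), in H3K27Ac, and medians of 0.41 and 0.60. Other adhesion and self-avoidance molecules had 11, with 2 higher in H3K18La (Dscaml1 and Plxna2) and 4 in H3K27Ac (Dscaml1, Sdk1, Cntn1 and Plxna2), and medians of 0.70 and 0.65. In these 4 lists 0 promoters were called lower in either mark. The medians of the 3 adhesion lists lay below those of all tested promoters in both marks, as did those of the member promoters.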

How the data were processed

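The table covered 10 CUT&Tag libraries, each from 500000 cells. The sample labels used here give no batch, and a batch effect was not tested. The authors called MACS peaks (−log10 q above 6 in at least 2 replicates), annotated them with ChIPseeker 1.34.1 (promoter from -1000 to 500 bp) and counted reads with csaw, normalized over 10000-bp windows. The deposited values are RPKM on GRCm38. The number of peaks equals that of the study's merged consensus set of the developing retina, but the set used is not named, and whether window factors are in the denominators is not given in the sources used here. Extract text in the labels names another antibody and enzyme than the titles, which were followed. The authors' own comparison of H3K18La (log2 fold changes, p-values, group means) was not used. Every value was a whole number of reads within 0.01 read, so reads were recovered. No label ties replicates to separate animals or cultures, so p-values measure only the spread between these libraries, which may be technical.

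Members and lists were chosen with earlier results of these data known. Peaks with a mean of at least 1 RPKM were fitted on log2(RPKM + 0.5) with limma 3.58.1 in R 4.3.3 (eBayes with trend, two-sided, Benjamini-Hochberg threshold 0.05), each mark alone, and all 10 libraries for the marks and the interaction. This replaced the study's count model (edgeR 3.40.2) because the unit was RPKM, and the minimum was used because an earlier fit without it had missed changes planted in made data. The fit was tested on simulated data, where with the minimum it still missed many planted changes, most of all for H3K18La. Each gene is represented by its promoter peak of highest mean, or else its strongest peak. Named were every non-clustered gene, up to 3 genes of each clustered family, the 3 highest and 3 lowest changes per mark and family, and every fall. Alternatives were other pseudocounts, minimums, scalings, moderation and thresholds, voom on recovered reads, a replicate block, leaving out each library and, chosen after seeing the data, clustered peaks taken by position. Python 3.11.15 with numpy 2.4.6, pandas 2.3.3, scipy 1.17.1 and matplotlib 3.10.9 was used.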

Additional observations from a re-analysis of the deposited data

How the results depend on the processing

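Counts of called members depended on the processing, and the cause was not tested. For H3K18La (3 called), the count was 1 with a pseudocount of 0.1 (25.9% of all peaks higher), 5 of 10 tested with a minimum of 2 RPKM (55.3%), 7 with voom (40.7%), 1 at a threshold of 0.01 (16.6%), and 0 with median centring (1.64%) or scaling to reads in peaks (0 of all peaks). For H3K27Ac (8 called), it was 0 with no minimum (0 of all 108253 peaks), 5 of 10 tested with a minimum of 2 (54.2%), 3 at 0.01 (13.7%), and 0 with median centring (1.22%) or scaling to reads in peaks (0 of all peaks). For the marks at 25 mM (7 called), it was 2 with a pseudocount of 0.1 (14.4% of all peaks higher), 2 with median centring (15.8%), 0 with scaling to reads in peaks (5.37%) and 2 at 0.01 (14.7%), and at 5 mM (3 called) it was 1, 1, 6 and 1 with median centring (9.34%), reads in peaks (3.95%), voom (30.4%) and 0.01 (14.7%). Centring moved the median change of all tested peaks to 0.16 and 0.14. The H3K27Ac rise at a Pcdh9 promoter peak turned to -0.039 with reads in peaks. Leaving out 1 library gave 1 to 4 calls for H3K18La (1 without replicate 2 or 3 at 25 mM, with 19.8% and 22.5% of all peaks higher), 0 to 12 for H3K27Ac (0 and 1 without replicate 1 or 2 at 25 mM, 5 without replicate 1 at 5 mM and 12 without replicate 2 at 5 mM, where 0.0124%, 1.2%, 22.3% and 52.7% of all peaks were higher), 1 to 7 for the marks at 25 mM (1 and 2 without H3K27Ac replicate 1 or 2 at 25 mM, where 7.42% and 14.3% of all peaks were higher, and 4 without H3K18La replicate 2 or 3 at 25 mM, with 19.2% each) and 1 to 4 at 5 mM (1 without H3K27Ac replicate 2 at 5 mM, with 3.63%). The interaction gave 0 in every alternative. The Pcdha1 rise in H3K18La passed in 14 of 16 alternatives (adjusted p from 0.000196 to 0.540). Clustered exceeded other members in every alternative for which this difference was computed. It was not computed for voom, robust moderation, the replicate block or the threshold of 0.01. The excess was 0.24 to 0.61 without 1 library for H3K18La and 0.55 to 0.74 for H3K27Ac. With clustered peaks taken by position it was 0.37 and 0.76.

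Replicate numbers shared by the glucose groups were not shown to pair the libraries. Deviations of same-numbered libraries correlated at 0.029, 0.013 and 0.017 for H3K18La and 0.017 for H3K27Ac, and not every library correlated best with its own number. With 2 H3K27Ac libraries per group the deviations mirror each other, so those correlations can differ only in sign. At this depth correlations near 0 cannot decide whether libraries were paired. With the replicate block the counts were 2 for H3K18La (32.3% of all peaks higher), 4 for H3K27Ac (10.7%), 6 for the marks at 25 mM (23.9%) and 5 at 5 mM (27.7%). Depth also limits single peaks, since the median member held 1 to 12 reads in a library.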
